A study of Mus musculus with 6 samples.

Results

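The 10 CC chemokine genes Ccl2, Ccl3, Ccl4, Ccl5, Ccl6, Ccl7, Ccl9, Ccl12, Ccl17 and Ccl22 were followed across the leukocytes of mouse lung. They were chosen by symbol, 10 of the 32285 features counted, and all 10 had counts. The cells were CD45-positive leukocytes, isolated on magnetic beads from perfused, enzyme-digested lungs and profiled with the 10x Genomics 3′ kit. The 3 libraries named Ctrl come from normal lung, and the 3 named AML from lung infiltrated by acute myeloid leukaemia, a cancer of myeloid precursors. The labels give no strain, age, sex, leukaemia model or number of animals, and they do not mark which cells are leukaemic, so p-values measure the spread between these libraries, which may be technical.

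CC chemokines are small secreted proteins with 2 adjacent cysteines that draw leukocytes along a gradient by binding G protein-coupled CC receptors. Ccl2, Ccl7 and Ccl12 are ligands of Ccr2, the receptor that brings monocytes out of the marrow. Ccl3, Ccl4 and Ccl5 are inflammatory chemokines of myeloid and cytotoxic cells, and Ccl3 and Ccl5 bind Ccr1. Ccl6 and Ccl9 are rodent myeloid chemokines that bind Ccr1 as well. Ccl17 and Ccl22 are the ligands of Ccr4, found on regulatory and helper T cells, and dendritic cells are a known source of them.

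The genes lie in 2 stretches of the mouse genome (build GRCm38, or mm10, with GENCODE gene models). On chromosome 11, Ccl2 (82035571 to 82037453), Ccl7 (82045712 to 82047525) and Ccl12 (82101845 to 82103400) form 1 cluster on the plus strand. After a gap of 1422377 bases come Ccl5 (83525778 to 83530518), Ccl9 (83572919 to 83578636), Ccl6 (83587882 to 83593087) and Ccl3 (83647844 to 83649355) on the minus strand and Ccl4 (83662584 to 83664683) on the plus strand. Ccl3 and Ccl4 are neighbours, 13228 bases apart. On chromosome 8, Ccl22 (94745590 to 94751699) and Ccl17 (94810453 to 94812036) lie on the plus strand, 58753 bases apart, with the chemokine gene Cx3cl1 between them. Ccl2 overlaps the gene model Gm17268 and Ccl6 overlaps E230016K23Rik, so reads of those pairs may not all be assigned correctly.

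Upstream sequence is shown for 4 members that the results turn on: Ccl3, which rose in AML lung, Ccl9, whose change differed between monocyte types, and Ccl17 and Ccl22, which shared their cells. RefSeq promoter windows (GRCm38.p6) were matched for 6 of the 10 members. Each line is the last 120 bases of that window that lie before both the RefSeq and the GENCODE start of the gene, 5′ to 3′ on the gene's strand, at chr11:83649379-83649498 (minus), chr11:83578637-83578756 (minus), chr8:94810333-94810452 (plus) and chr8:94745470-94745589 (plus), in that order. Capitals mark a match, on either strand, to the kappaB motif read as GGG, any 3 bases and TTCC.
Ccl3: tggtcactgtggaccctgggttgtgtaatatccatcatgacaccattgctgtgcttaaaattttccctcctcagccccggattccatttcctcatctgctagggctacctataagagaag
Ccl9: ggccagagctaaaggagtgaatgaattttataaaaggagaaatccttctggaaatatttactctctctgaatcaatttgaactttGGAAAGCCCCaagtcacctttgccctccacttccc
Ccl17: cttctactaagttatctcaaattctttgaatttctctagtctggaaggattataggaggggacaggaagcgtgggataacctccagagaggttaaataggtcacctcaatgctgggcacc
Ccl22: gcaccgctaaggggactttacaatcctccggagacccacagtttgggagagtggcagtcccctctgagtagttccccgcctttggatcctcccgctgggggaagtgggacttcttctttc
Of the 6 windows of 250 bases, only that of Ccl9 held the kappaB letters, which 4.648% of all 32851 windows of that length held. The AP-1 letters TGANTCA were in 1 of the 6 (6.749% of all windows) and the TATA letters TATAAA in 2 of the 6 (12.37%).

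The libraries held 43913245 to 66513826 UMIs (unique molecular identifiers, each a counted transcript molecule) in 3967 to 35391 barcodes. Depth per cell was uneven, with a median of 9354, 6102 and 2740 UMIs per barcode in Ctrl replicates 1, 2 and 3 and 9381, 3979.5 and 1067 in AML replicates 1, 2 and 3. Libraries shared 2 to 118 cell barcodes per pair, at most 1.134% of the smaller library. After filtering, 71634 cells were kept and 54250 (75.73%) were placed in a class by marker genes. The class names rest on those markers alone and are to be read as monocyte-like, NK-like and so on. Levels are the gene's share of all UMIs summed over the cells of a class in a library, per 1000000 UMIs (CPM), and are compared between classes and groups, not between genes. Although CD45 was selected for, 1140 of the cells had the markers of endothelium. B cells, not a known source of the myeloid chemokine Ccl6, were used to read the level that free RNA can give. In B cells Ccl3 stood at 1.05, 0.416 and 3.39 CPM in Ctrl replicates 1 to 3 and at 1.503, 3.39 and 81.3 CPM in AML replicates 1 to 3, and Ccl6 at 8.92, 17.3 and 78.3 against 4.89, 21.3 and 338 CPM. AML replicate 3 therefore stood apart in its background as in its depth, and results that rest on it are given with and without it.

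In whole libraries, 2 members were higher and 1 was lower in AML lung. Ccl4 stood at 64.6, 101.8 and 106 CPM in Ctrl and at 279, 207 and 248 CPM in AML replicates 1 to 3. The groups did not overlap, and the log2 change was 1.56 (SE 0.20, adjusted p = 0.011, edgeR's quasi-likelihood test). Ccl3 stood at 66.7, 83.3 and 84.7 CPM in Ctrl and at 138, 93.1 and 148 CPM in AML (log2 change 0.83, SE 0.19, edgeR adjusted p = 0.042). Ccl22 stood at 23.4, 21.7 and 18.1 CPM in Ctrl and at 10.5, 6.74 and 10.6 CPM in AML (log2 change -1.06, SE 0.21, edgeR adjusted p = 0.033). The count of 3 called among 9 members tested compares with 9.48% of the 16808 genes tested (6.04% called higher and 3.44% lower), and the median log2 change of the 9 was -0.02, against -0.005 over all genes tested. The count fell to 0 without Ctrl replicate 1 or 2, where 0 of 17192 and 0 of 17150 genes were called. It was 1 without Ctrl replicate 3 (503 of 17177 genes called) or AML replicate 1 (292 of 17262). It was 2 without AML replicate 2 (462 of 17226 genes called) and 4 without AML replicate 3, where 18.7% of genes were called. With same-numbered libraries taken as pairs the count was 0, with 72 of 16808 genes called.

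The other 6 members tested did not pass in whole libraries. Ccl9 had an estimated change of 0.56 in log2 (SE 0.17, edgeR adjusted p = 0.077), with 53.9 to 61.1 CPM in Ctrl and 66.3 to 98.8 CPM in AML. Ccl6 stood at 1686, 1529 and 1153 CPM in Ctrl and at 608, 533 and 1205 CPM in AML, so that AML replicate 3 lay within the Ctrl range (log2 change -0.77, SE 0.33, edgeR adjusted p = 0.17). Without AML replicate 3 Ccl6 was called lower, with 18.7% of genes called. Over all alternative fits its lowest log2 change was -1.20 and its highest -0.34. Ccl17 ranged from 12.5 to 40.0 CPM in Ctrl and from 3.11 to 15.0 CPM in AML (log2 change -1.31, SE 0.60, edgeR adjusted p = 0.20). Ccl5 had a log2 change of 0.35 (SE 0.24), Ccl2 of -0.02 (SE 0.20) and Ccl7 of -0.52 (SE 1.04). Ccl12 had 74 UMIs in all 6 libraries and was too low to be tested. A sum over a whole library moves with the share of each cell class and with the level in its cells, which cannot be told apart in it, so the classes were taken apart.

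The members separated into groups by the cells that held them. Ccl5 was a gene of cytotoxic cells and mature dendritic cells (DC), with 8042 CPM ± 1105 in NK cells (SD, n = 6), 6509 ± 2301 in mature DC (n = 4) and 1790 ± 1687 in CD8 T cells (n = 6). NK cells were above mature DC in 3 of 4 libraries, so the order of these 2 classes did not hold in every library, and it was not tested. In NK cells a Ccl5 UMI was found in 94.5% to 98.2% of cells in each library. The high spread of CD8 T cells came from AML replicate 3, at 5199 CPM, while the other 5 libraries had Ccl5 between 821 and 1518 CPM.

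Ccl6 was a gene of alveolar macrophages, the resident phagocytes of the airspace, with 2750 CPM ± 999 (SD, n = 6). Neutrophils followed with 1638 ± 187, classical monocytes with 879 ± 131 and nonclassical monocytes with 503 ± 152 (n = 6 each). Alveolar macrophages were above neutrophils in 5 of 6 libraries, and each later step of this order held in 6 of 6. Ccl9 had another order among the same cells. Its level was 259 CPM ± 59.5 in classical monocytes, the inflammatory monocytes of blood (n = 6), 151 ± 68.4 in type 2 conventional DC (cDC2, n = 5), 95.2 ± 14.3 in nonclassical monocytes and 30.5 ± 12.7 in alveolar macrophages (n = 6 each). Classical monocytes were above cDC2 in 5 of 5 libraries.

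Ccl3 and Ccl4 were spread over more classes. Ccl3 was highest in NK cells, at 244 CPM ± 82.6 (SD, n = 6), followed by neutrophils at 120 ± 45.9 and nonclassical monocytes at 113 ± 76.9. NK cells were above neutrophils in 5 of 6 libraries, and neutrophils above nonclassical monocytes in 4 of 6. Neither step of this order held in every library, and neither was tested. Ccl4 was highest in plasmacytoid DC (pDC), the interferon-producing DC, at 1157 CPM ± 266 (n = 5), followed by NK cells at 840 ± 295, cDC2 at 329 ± 127 and neutrophils at 314 ± 261. For Ccl4, pDC were above NK cells in 5 of 5 libraries and NK cells above cDC2 in 5 of 5, which were not all the same libraries. In pDC, 4 to 13 cells per library had a Ccl3 UMI and 84.6% to 100% of them also had Ccl4, against 52.2% to 72.4% of the cells without Ccl3.

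A class of few cells had high levels of both. Only 22 cells were gated as basophils or mast cells, granulocytes known for histamine release, with 0 to 8 in a library, so none reached 20. With at least 5 cells, a limit added with the data in view, 1 AML and 2 Ctrl libraries were left, so no call is read from them. The fitted log2 changes were -0.82 for Ccl3, -1.03 for Ccl4, 0.004 for Ccl6 and -0.36 for Ccl9. The single AML library was assumed to vary like the Ctrl pair in that edgeR fit. In the 8 such cells of Ctrl replicate 2, Ccl4 had 625 of 25428 UMIs, which is 24580 CPM (exact Poisson interval 22690 to 26580), and Ccl3 had 378 UMIs, or 14870 CPM (13400 to 16440). The 2 cells of Ctrl replicate 1 had 15040 CPM of Ccl4 and the 6 cells of Ctrl replicate 3 had 15480 CPM. In AML lung, 5 cells in replicate 3 had 9363 CPM of Ccl4 (interval 6971 to 12310), and the 1 cell of AML replicate 1 had no UMI of Ccl3 or Ccl4 among its 5521 UMIs. The 16 cells of the Ctrl libraries held 8.75% of the Ccl4 UMIs of the 3 Ctrl libraries together. Ccl9 reached 1784, 1927 and 2021 CPM in the same cells of Ctrl replicates 1 to 3. All intervals cover counting error only.

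**Figure D1:**
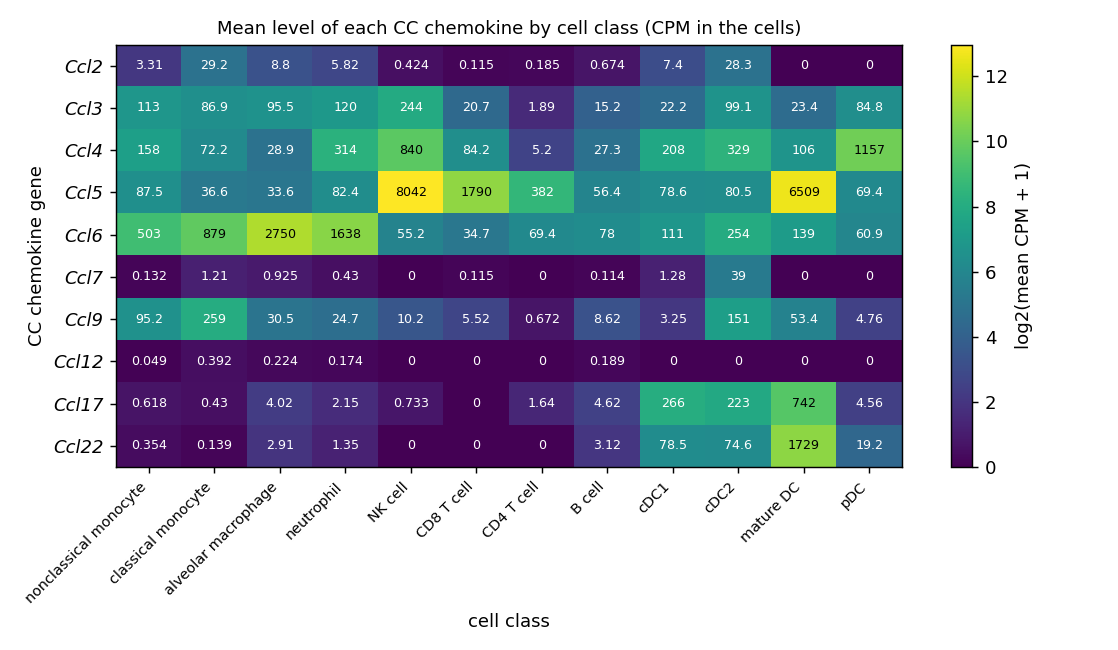
Mean CPM of each CC chemokine (rows) in 12 cell classes (columns) over the libraries with at least 20 cells of the class. Colour gives log2(mean CPM + 1) and the printed number the mean CPM, for example 8042 for Ccl5 in NK cells, 2750 for Ccl6 in alveolar macrophages and 1729 for Ccl22 in mature DC.

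The Ccr2 ligands were low in these leukocytes. Ccl2 was highest in classical monocytes, at 29.2 CPM ± 11.5 (SD, n = 6), and in cDC2, at 28.3 ± 15.4 (n = 5), with classical monocytes above in 3 of 5 libraries. Ccl7 had 279 UMIs in 105 cells of all libraries, and its 10 highest cells held 48.39% of them. Its highest level over libraries with at least 20 cells was 39.0 CPM ± 73.3 in cDC2 (n = 5), which rested on 49 UMIs in Ctrl replicate 2. Ccl12 had 74 UMIs in 54 cells. Interstitial macrophages, the C1q-positive macrophages of the lung tissue, held 44 of the Ccl7 UMIs and 23 of the Ccl12 UMIs although only 187 cells were placed in that class. Their Ccl7 level ran from 0 UMIs in Ctrl replicate 3 (3 counts, the most a count of 0 allows, would be 34.8 CPM) to 449 CPM in AML replicate 1. A single cell, of the 8 in AML replicate 1, held 26 of the 44 Ccl7 UMIs of the class. Ccl12 ran from 0 to 71.6 CPM. Libraries of at least 5 such cells were then tested, a limit chosen with the data in view. None of 4 members tested in interstitial macrophages was called (edgeR, 0.0505% of 1982 genes called). None of 9 members changed differently there than in alveolar macrophages (0.0884% of 10176 genes called). In both fits no member had an unadjusted edgeR p under 0.05.

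The labels do not say whether any monocytes of AML lung are leukaemic, so a change in a monocyte class is one of all cells with its markers. In nonclassical monocytes, the patrolling monocytes of the vessel wall, 3 of 6 members tested were higher in AML lung and none was lower, against 3.03% of 11323 genes tested that were called, 1.63% as higher and 1.4% as lower. The median log2 change of the 6 was 1.49, against 0.008 over all genes tested. Ccl4 stood at 26.6, 53.9 and 50.6 CPM in Ctrl replicates 1 to 3 and at 330, 217 and 270 CPM in AML replicates 1 to 3. Every AML library was above every Ctrl library, with an estimated change of 2.65 in log2 (SE 0.29, edgeR adjusted p = 0.012). Ccl3 stood at 40.0, 54.7 and 53.7 CPM in Ctrl and at 181, 122 and 225 CPM in AML (log2 change 1.84, SE 0.24, edgeR adjusted p = 0.015). Ccl5 stood at 8.65, 7.25 and 30.3 CPM in Ctrl and at 92.8, 131 and 255 CPM in AML (log2 change 3.38, SE 0.61, edgeR adjusted p = 0.035).

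The other 3 members tested in nonclassical monocytes did not pass. Ccl2 had 1.30, 2.80 and 2.10 CPM in Ctrl and 5.07, 3.89 and 4.74 CPM in AML, a change of 1.14 in log2 terms (SE 0.33, edgeR adjusted p = 0.11). Ccl6 had 370 to 439 CPM in Ctrl and 422 to 759 CPM in AML (log2 change 0.58, SE 0.21, edgeR adjusted p = 0.18). Ccl9 had 76.1 to 112 CPM in Ctrl and 84.7 to 111 CPM in AML (log2 change 0.05, SE 0.16, edgeR adjusted p = 0.88). Leaving out any 1 Ctrl library ended the calls of Ccl3, Ccl4 and Ccl5. The log2 changes of Ccl4 were then 2.39 to 2.83, with edgeR adjusted p of 0.063 to 0.070. In those fits few genes of any kind were called, 0 of 11889, 5 of 11905 and 12 of 11891 without Ctrl replicates 1, 2 and 3. Without AML replicate 1, where 95 of 11400 genes were called, the call of Ccl5 ended (edgeR adjusted p = 0.053) and the other 2 passed.

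The 3 calls in nonclassical monocytes were also made without the library of high background. Without AML replicate 3, where 14.7% of genes were called, the log2 changes in nonclassical monocytes were 2.67 for Ccl4 (edgeR adjusted p = 0.0015), 1.64 for Ccl3 (adjusted p = 0.0027) and 2.90 for Ccl5 (adjusted p = 0.0076). In AML replicates 1 and 2, B cells had 3.38 and 15.2 CPM of Ccl4, beside 330 and 217 CPM in nonclassical monocytes. A Ccl4 UMI was found in 37.6%, 26.2% and 19.4% of nonclassical monocytes of AML replicates 1 to 3 and in 5.50%, 6.44% and 7.80% of those of Ctrl replicates 1 to 3. At an equal depth of 500 UMIs per cell these shares were 8.79%, 7.13% and 9.69% in AML and 0.916%, 1.37% and 1.58% in Ctrl. For Ccl5 the B cells came nearer, with 5.77, 10.2 and 30.2 CPM in Ctrl and 4.51, 55.4 and 232 CPM in AML. The 232 CPM of AML replicate 3 stood beside 255 CPM in its nonclassical monocytes. There, 83.5% of the B-cell Ccl5 UMIs lay in the 16.6% of B cells with a marker of NK cells, T cells or mature DC. B cells without such a marker had 4.34, 7.89 and 20.2 CPM in Ctrl and 4.80, 13.5 and 47.5 CPM in AML replicates 1 to 3. The part of free RNA in the Ccl5 change was not tested. In B cells of AML lung a Ccl4 UMI was found in 2.08%, 1.91% and 7.36% of cells.

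**Figure D2:**
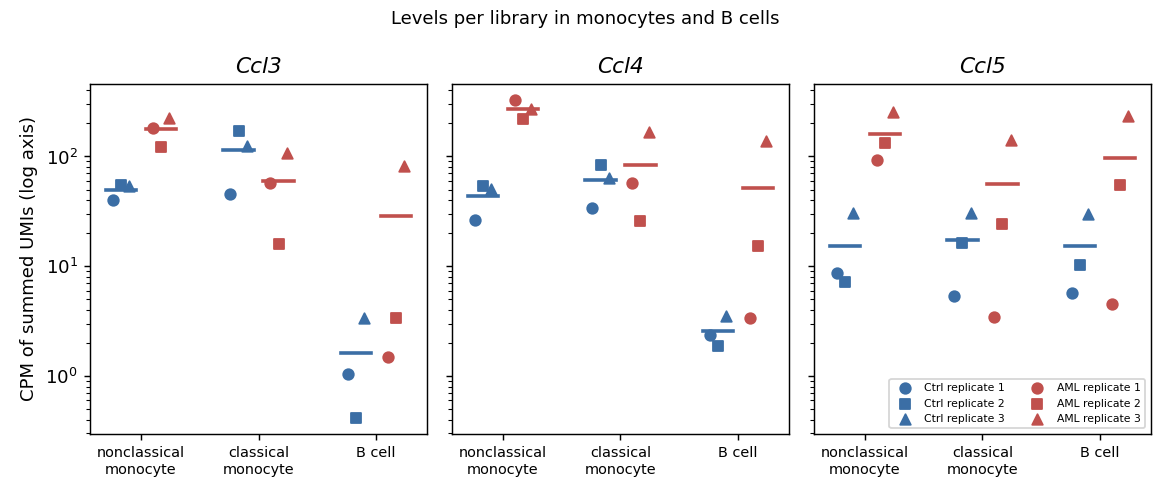
CPM of Ccl3, Ccl4 and Ccl5 on a log axis in nonclassical monocytes, classical monocytes and B cells, with 1 point per library (blue Ctrl, red AML, shape the replicate number) and a line at the group mean. In nonclassical monocytes the AML points lie above the Ctrl points for all 3 genes, and in B cells AML replicate 3 lies highest, at 81.3 CPM for Ccl3.

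In nonclassical monocytes of AML lung Ccl5 was concentrated in a smaller part of the cells than Ccl3 or Ccl4. In nonclassical monocytes of AML replicates 1, 2 and 3, the 5% of cells with the most Ccl5 held 96.1%, 92.6% and 82.6% of its UMIs. For Ccl3 the corresponding shares were 51.2%, 54.1% and 44.1%, and for Ccl4 66.7%, 67.8% and 58.0%. In Ctrl replicates 1 to 3 the shares were 98.4%, 96.9% and 89.5% for Ccl4 and 100%, 100% and 90.6% for Ccl5, on far fewer UMIs. A single cell of AML replicate 1 held 528 of the 2420 Ccl5 UMIs. Markers of NK cells, T cells or mature DC, classes with high Ccl5, were detected in 17.9%, 11.2% and 14.4% of nonclassical monocytes of AML replicates 1 to 3 and in 10.2% to 14% of those of Ctrl lung. In AML those cells held 32.1%, 36.3% and 73.2% of the Ccl5 UMIs. The summed level of the NK marker list in nonclassical monocytes was 4.12 to 14.3 CPM in Ctrl and 4.14 to 111 CPM in AML, that of the T cell list 3.89 to 18.5 and 4.45 to 74.7 CPM, and that of the mature DC list 3.43 to 6.92 and 7.16 to 28.3 CPM. Ccl5 in the cells without such a marker was 79.6, 94.8 and 82.5 CPM in AML and 9.74, 5.89 and 20.8 CPM in Ctrl. With those cells left out, a setting added once the data had been seen, 4.06% of genes were called and the log2 changes were 2.84 for Ccl5 (edgeR adjusted p = 0.012), 2.54 for Ccl4 (adjusted p = 0.0051) and 1.85 for Ccl3 (adjusted p = 0.013). With likely doublets kept in, Ccl5 had a log2 change of 2.47 and did not pass (edgeR adjusted p = 0.11).

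Ccl3 and Ccl4 were often in the same cells. Of the nonclassical monocytes with a Ccl3 UMI, 57.3%, 51.9% and 36.5% in AML replicates 1 to 3 also had Ccl4, against 22.4%, 16.8% and 14.4% of those without Ccl3. In Ctrl replicates 1 to 3 the shares were 8%, 20.4% and 26.4% with Ccl3 against 4.92%, 4.01% and 5.22% without. Depth moved with these shares, since cells with Ccl3 held more UMIs in all, and its part in them was not tested. Spic, a transcription factor gene of iron-handling macrophages singled out after its values were seen, marked cells with more of both. Nonclassical monocytes with a Spic UMI had 553, 432 and 475 CPM of Ccl4 in AML replicates 1 to 3, against 185, 147 and 253 CPM in those without. For Ccl3 the values were 272, 211 and 299 CPM against 122, 92.9 and 219 CPM. In Ctrl the Spic-positive cells were few, 28, 22 and 35, and had 67.5, 222 and 176 CPM of Ccl4 against 23.0, 47.9 and 44.98 CPM. Ccl4 was thus higher in cells with Spic in 6 of 6 libraries. Ccl6 had 402, 581 and 723 CPM in the Spic-positive cells of AML lung and 434, 632 and 762 CPM in the others.

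In classical monocytes, none of 6 members tested passed, against 3.11% of 10162 genes tested. At an unadjusted p under 0.05 edgeR had 1 of the 6, beside 2381 of the 10162 genes. DESeq2 called 1 after adjustment, which was Ccl9, beside 660 of the 10162 genes. Ccl3 stood at 45.7, 171 and 124 CPM in Ctrl and at 57.6, 15.9 and 107 CPM in AML, and the groups overlapped (log2 change -0.93, SE 0.63, edgeR adjusted p = 0.41). Ccl4 had 33.9, 84.2 and 63.9 CPM in Ctrl and 57.1, 26.0 and 168 CPM in AML (log2 change 0.47, SE 0.60). Ccl9 had 344, 281 and 297 CPM in Ctrl and 198, 191 and 245 CPM in AML, with every AML library below every Ctrl library (log2 change -0.55, SE 0.14, edgeR adjusted p = 0.073). Without AML replicate 3 the change of Ccl9 was -0.69 and passed (edgeR adjusted p = 0.014, with 12.6% of genes called). Ccl2 had an estimated change of -0.58 in log2 (SE 0.30, edgeR adjusted p = 0.29), Ccl5 of 1.74 (SE 0.97), and Ccl6 stood at 858 to 918 CPM in Ctrl and 692 to 1097 CPM in AML. Over the alternative fits the lowest change of Ccl5 was -0.11 and the highest 2.41. Cells with a marker of NK cells, T cells or mature DC held 14.3%, 49.4% and 83.4% of the Ccl5 UMIs in AML replicates 1 to 3.

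The difference between the 2 monocyte types was tested directly, in a model with the library as a block. The AML change was larger in nonclassical than in classical monocytes for 3 of 6 members, against 1.17% of 11492 genes tested that were called, 0.722% in that direction. These were Ccl3, by 2.97 on the log2 scale (SE 0.46, edgeR adjusted p = 0.029), Ccl2, by 1.75 (SE 0.25, adjusted p = 0.023), and Ccl9, by 0.66 (SE 0.11, adjusted p = 0.036). Ccl4 differed by 2.55 (SE 0.53, edgeR adjusted p = 0.055), Ccl5 by 2.27 (SE 0.72, adjusted p = 0.16) and Ccl6 by 0.63 (SE 0.20, adjusted p = 0.16). Without AML replicate 3, 5 of the 6 passed, against 8.62% of genes, Ccl4 with 3.35 (adjusted p = 2.1e-06) and Ccl5 with 3.13 (adjusted p = 0.0016) among them. Without AML replicate 1 the count was 2, without AML replicate 2 it was 1, and without any 1 Ctrl library none of the 6 passed. The shares of all genes called in these fits are not given here, so the counts are not read as results about the members. Over 13 alternative fits the difference was 2.48 to 3.49 in log2 for Ccl3. It was 1.65 to 2.97 for Ccl2 and 0.57 to 0.70 for Ccl9.

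The cells that held the UMIs also differed between the groups. Nonclassical monocytes made up 36.4% ± 18.6 of kept cells in AML and 11.8% ± 1.76 in Ctrl lung (SD, n = 3 each). They held 52.1% of the Ccl3 UMIs and 45.1% of the Ccl4 UMIs of the 3 AML libraries together, and 7.26% and 5.64% of those of the Ctrl libraries. Alveolar macrophages, 5.47% ± 2.23 of cells in AML and 19.8% ± 6.72 in Ctrl, held 25.3% of the Ccl6 UMIs in AML and 75.9% in Ctrl. NK cells held 48.3% of the Ccl5 UMIs in AML and 67.6% in Ctrl. These shares pool 3 libraries a group and were not tested.

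**Figure D3:**
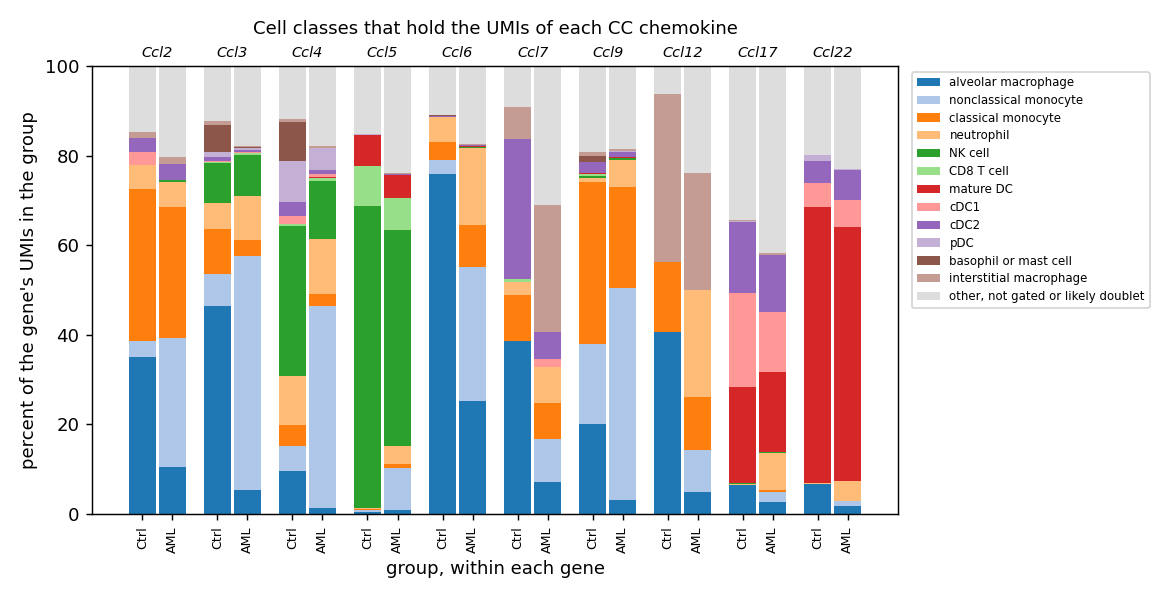
Percent of each CC chemokine's UMIs held by each cell class, as a stacked bar for the 3 Ctrl and the 3 AML libraries together, with other, ungated and likely doublet cells in grey. Nonclassical monocytes hold 52.1% of the Ccl3 UMIs in AML and 7.26% in Ctrl, and alveolar macrophages 25.3% and 75.9% of those of Ccl6.

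Ccl6 within alveolar macrophages did not pass. It stood at 2847, 3267 and 3471 CPM in Ctrl and at 2259, 989 and 3670 CPM in AML (log2 change -0.46, SE 0.40, edgeR adjusted p = 0.71). AML replicate 2 was low and AML replicate 3 was above all Ctrl libraries. None of the 8 members tested in these macrophages passed, nor did any of 11507 genes (0% called, 1140 at an unadjusted p under 0.05, of which 1 was a member). Ccl17 had the least negative of its tested changes here, -1.06 (SE 1.09), on 0.362 to 12.99 CPM. DESeq2 called none of the 8. In neutrophils none of 6 members passed, again with 0% of 8778 genes called, with no member at an unadjusted p under 0.05 and none called by DESeq2. Ccl4 in neutrophils had 160, 245 and 269 CPM in Ctrl and 127, 836 and 250 CPM in AML, where AML replicate 2 was high. The largest decrease tested for Ccl2 was in neutrophils, -1.79 (SE 1.27, edgeR adjusted p = 0.61), where AML replicate 1 and Ctrl replicate 2 had no Ccl2 UMI. A single neutrophil of Ctrl replicate 3 held 27 of the 37 Ccl2 UMIs of that class and library.

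In NK cells, Ccl3 had 175, 193 and 157 CPM in Ctrl and 357, 323 and 256 CPM in AML. Every AML library was above every Ctrl library, but the change of 0.91 on the log2 scale (SE 0.16) did not pass after adjustment (edgeR adjusted p = 0.13, with 0.0735% of 9529 genes called). Without AML replicate 3 it was 1.03 and passed (adjusted p = 0.0040, with 1.04% of genes called), and DESeq2 also called it (adjusted p = 0.00028). Ccl4 had 544 to 1178 CPM in Ctrl and 701 to 1242 CPM in AML NK cells, and Ccl5 had 7461 to 8942 against 6920 to 9729 CPM, so both overlapped. The largest tested increase of Ccl6, 2.43 (SE 1.10, edgeR adjusted p = 0.35), was in NK cells and rested on AML replicate 3, where Ccl6 stood at 255 CPM beside 338 CPM in its B cells. Without that library it was -0.38. The AML change of NK cells and CD8 T cells was compared for 5 members and none differed at the threshold (0% of 10332 genes called). Before adjustment 1 of the 5 was under 0.05 in edgeR. The share of all genes at that limit is not given here, so this count is not read as a result about the members.

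Ccl5 fell in CD4 T cells. It stood at 359, 590 and 682 CPM in Ctrl and at 240, 143 and 280 CPM in AML, where AML replicate 3 rested on 19 UMIs in 38 cells. The log2 change was -1.38 (SE 0.26, edgeR adjusted p = 0.033), and Ccl5 was the only member tested there, with 0.37% of 8377 genes called and 0.334% called lower. The change did not pass without AML replicate 1 or 2 or without any 1 Ctrl library, with values of -1.13 to -1.63. Nor did it pass with same-numbered libraries taken as pairs. In CD8 T cells Ccl5 had an estimated change of 1.18 in log2 (SE 0.55, edgeR adjusted p = 0.49), and of 0.17 without AML replicate 3. No other lymphoid or dendritic class had a member past edgeR's threshold, with 0.0159% of 6285 genes called in cDC1, 0.0309% of 6476 in cDC2 and 0% in CD8 T cells, B cells and pDC. At an unadjusted edgeR p under 0.05 there were 2 of 6 members tested in cDC1, 2 of 8 in cDC2 and 2 of 5 in B cells. There was 1 of 3 in CD8 T cells and 1 of 4 in pDC. The share of all genes at that threshold is not given here, so these counts are not read as results about the members. DESeq2 called none in these 5 classes. In B cells the largest tested increases of Ccl3, 4.05 (SE 1.56, edgeR adjusted p = 0.52), and of Ccl9, 2.74 (SE 1.31, adjusted p = 0.54), became 0.60 and 0.32 without AML replicate 3.

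**Figure D4:**
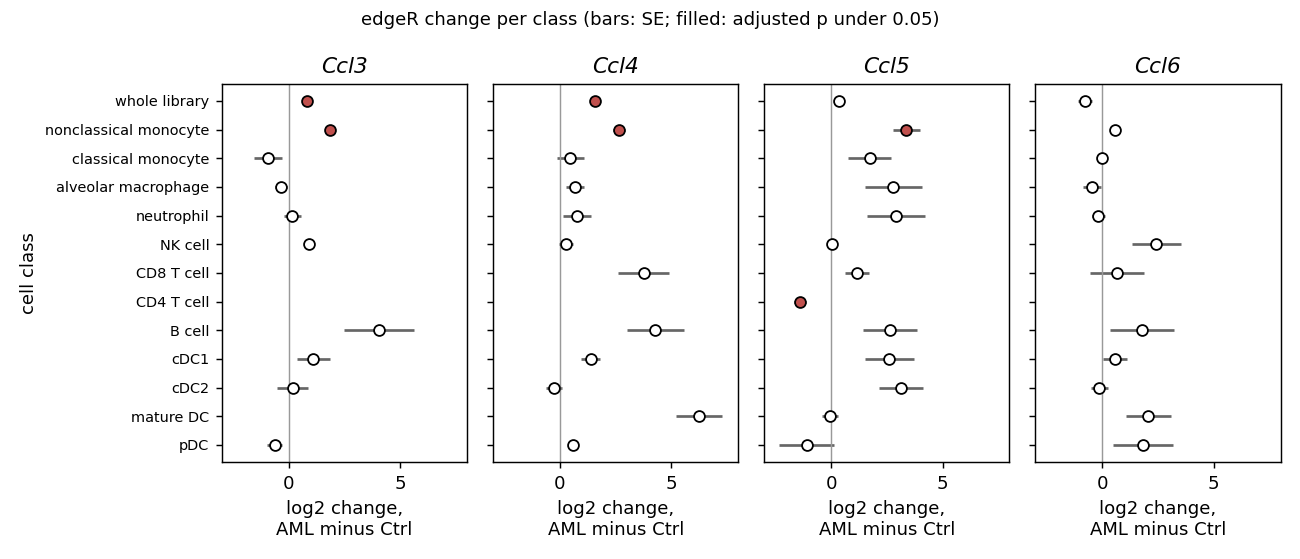
Log2 change in AML against Ctrl of Ccl3, Ccl4, Ccl5 and Ccl6 in whole libraries and in each class where the gene was tested, with bars of 1 SE. Filled points pass the threshold: Ccl3 and Ccl4 in whole libraries and nonclassical monocytes, and Ccl5 in nonclassical monocytes (3.38) and CD4 T cells (-1.38).

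Ccl17 and Ccl22 belonged to dendritic cells. Mature DC, the migrating Ccr7-positive state, had 742 CPM ± 496 of Ccl17 and 1729 ± 864 of Ccl22 (SD, n = 4). Ccl17 followed in type 1 conventional DC (cDC1) with 266 ± 146 (n = 6) and in cDC2 with 223 ± 128 (n = 5), and Ccl22 with 78.5 ± 43.5 and 74.6 ± 63.6 in the same classes. Mature DC were above cDC1 in 4 of 4 libraries for both genes. Of mature DC with Ccl17, 95%, 100%, 83.3% and 87.5% also had Ccl22 in Ctrl replicates 2 and 3 and AML replicates 2 and 3, the 4 libraries with at least 20 such cells.

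In mature DC, Ccl17 had 1007, 1112 and 1165 CPM in Ctrl and 667, 111 and 583 CPM in AML replicates 1 to 3, counting the 11 and 10 cells of the replicates numbered 1. All AML values were below all Ctrl values, and in the 4 libraries tested the log2 change was -1.84 (SE 0.64, edgeR adjusted p = 0.57). Ccl22 had 4326, 2715 and 2015 CPM in Ctrl and 2192, 659 and 1527 CPM in AML, which overlapped between AML replicate 1 and Ctrl replicate 3 (log2 change -1.16 in the 4 libraries, SE 0.39, edgeR adjusted p = 0.57). No gene of 3702 was called in mature DC with 2 libraries a group (0%). Before adjustment 3 of 5 members tested were under 0.05 in edgeR, and DESeq2 called Ccl4. Neither count has the share of all genes beside it, so neither is read as a result about the members. With all 6 libraries, each holding at least 5 cells, the log2 changes were -1.32 for Ccl17 (edgeR adjusted p = 0.38) and -1.07 for Ccl22 (adjusted p = 0.39). Fits without 1 of the 4 libraries leave a single library in an arm, assumed to vary like the other arm, and their calls are not read here. Without AML replicate 3 the change of Ccl17 was -3.40 and that of Ccl22 -1.88, the largest of the 4 such fits, and without AML replicate 2 Ccl22 had -0.67, the smallest. Mature DC made up 0.363% ± 0.0949 of kept cells in Ctrl and 0.229% ± 0.00941 in AML (SD, n = 3 each), beside the lower Ccl22 of whole libraries, of which they held 61.8% of UMIs in Ctrl and 56.8% in AML. Their part in that change was not tested. The most positive change of Ccl22 among the fits on at least 20 cells was 0.30, in cDC2 (SE 0.82), where 1 cell held all 84 Ccl22 UMIs of AML replicate 2. With all 6 libraries at 5 cells or more it was -0.63.

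Ccl5 in mature DC had 4818 to 8739 CPM in Ctrl and 4244 to 8665 CPM in AML and did not separate the groups. Ccl4 was nearly missing from mature DC of normal lung, with 0, 1 and 0 UMIs in Ctrl replicates 1 to 3, and had 8, 36 and 41 UMIs in AML (43.4, 97.2 and 323 CPM). A single cell held 35 of the 36 UMIs in AML replicate 2, and another 21 of the 41 in AML replicate 3. Its fitted log2 change of 6.25 (SE 1.04, edgeR adjusted p = 0.30) rests on the 1 Ctrl UMI and is not a fold. In AML replicate 3 the same cells had 425 CPM of Ccl6, a gene of macrophages, beside 43.4 and 32.4 CPM in AML replicates 1 and 2. In pDC, Ccl4 had an estimated change of 0.58 in log2 (SE 0.19, edgeR adjusted p = 0.49) in 5 libraries and of 0.06 (SE 0.28) when the sixth, with fewer than 20 such cells, was added. In cDC2 its change was -0.26 (SE 0.37), the lowest among the fits on at least 20 cells.

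**Figure D5:**
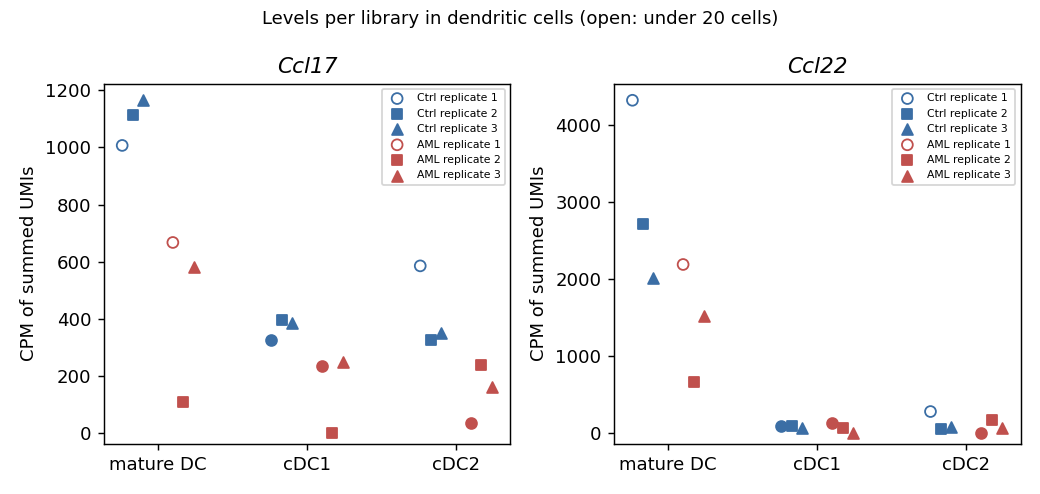
CPM of Ccl17 and Ccl22 in mature DC, cDC1 and cDC2, with 1 point per library (blue Ctrl, red AML, shape the replicate number, open where the library had under 20 cells of the class). In mature DC Ccl17 lies between 1007 and 1165 CPM in Ctrl and between 111 and 667 CPM in AML.

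The receptors of these chemokines had orders of their own. Ccr2 was highest in classical monocytes (729 CPM ± 124, SD, n = 6) and Ccr1 in neutrophils (618 ± 166). Ccr7, the receptor that leads DC to lymph nodes, was highest in mature DC (2403 ± 335, n = 4), and Ccr9 in pDC (1075 ± 186, n = 5). No CC receptor was among the markers that gated the classes. Ccr8 was highest in ILC2, the type 2 innate lymphoid cells (174 ± 111, n = 2). Ccr6 was highest in B cells (52.8 ± 19.3), Ccr4, the receptor of Ccl17 and Ccl22, in CD4 T cells (33.4 ± 15.5), and Ccr10 in T cells with both or neither of Cd4 and Cd8 (15.8 ± 19.3, n = 6 each). Of the related receptors, Ccrl2 was highest in neutrophils (258 ± 75.4), and the scavengers Ackr2 (43.3 ± 13.5) and Ackr4 (10.5 ± 4.81) in endothelial cells (n = 5). Of the 10 CC receptors, 5 related receptors and 10 other CC chemokines, none of those tested passed the threshold in whole libraries or in any class. In whole libraries 10, 3 and 4 of them were tested, and in nonclassical monocytes 5, 1 and 1.

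Across 83 class-by-library sums, the log2(CPM + 1) of Ccl17 and Ccl22 had a Pearson r of 0.886 and that of Ccl3 and Ccl4 of 0.811, the highest 2 values among the members. Sums of a library share its depth and background, so these are descriptions. The genes most alike to Ccl3 were Tyrobp (r = 0.879) and Fcer1g (0.872), adaptors of activating receptors, and Ccl4 came closest to Tyrobp (0.783) and Cd244a (0.735). Ccl5 was closest to Heatr9 (0.829), its neighbour on chromosome 11, and to Tnfrsf9 (0.829). Ccl6 was closest to Mcemp1 (0.932) and Abcd2 (0.914), Ccl9 to Csf1r (0.856), the receptor of macrophage colony-stimulating factor, and Fcgr1 (0.825), and Ccl2 to Capza2 (0.755) and Clec4b1 (0.751). Ccl17 was closest to Strip2 (0.887) and Ptchd1 (0.867), and Ccl22 to Slc27a3 (0.913) and Strip2 (0.910). Ccl7 was closest to Fcrls (0.713) and Cd209b (0.678), and Ccl12 to Ankrd34c (0.927) and Agxt2 (0.915), on very few UMIs.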

How the data were processed

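Per the labels' protocols, CD45-positive lung cells were profiled with the 10x Genomics 3′ kit v3.1. The deposited matrices hold raw UMI counts per gene and barcode, made with Cell Ranger 7.0.0 on mm10 per the submitters' processing notes; the strand and intron settings are not given in these sources. Groups and replicate numbers come from the titles.

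Cells with at least 200 genes, 500 UMIs and under 10% mitochondrial UMIs were kept. A cell joined the class with the most detected markers, at least 3 of 8 and more than for any other list. Likely doublets, cells with at least 4 markers of a second lineage, were left out (2.76% of kept cells, 1977), and 15407 cells were not gated. Both numbers were set after class sizes were seen, and no member is a marker. The members and lists were chosen with earlier results of these data known.

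Counts were summed per class and library. They were tested in R 4.3.3 with edgeR, version 4.0.16 (TMM, filterByExpr, quasi-likelihood F test, Benjamini-Hochberg over all genes tested, threshold 0.05). Libraries with under 20 cells of a class were left out, which left cDC2 and pDC with 5 libraries, mature DC with 4 and interstitial macrophages, ILC2 and basophils with no test; a limit of 5 cells was added after the data were seen. The SE is the change over the square root of F. DESeq2 1.42.0, RLE size factors, no count filter, a replicate block, left-out libraries, stricter filters and gate, and cells thinned to 1000 UMIs were alternatives. Libraries of a group differed by far more than sampling noise (chi-square per degree of freedom 40.3 to 163.2).

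Named in full were all members, their 2 highest classes and largest and smallest tested changes, every list gene past the threshold, the highest class of each receptor with at least 10 CPM (1 is not reported here), and the 2 most alike genes of each member. On simulated counts of the nonclassical monocyte comparison (11436 genes), 34.3% of the 2-fold and 98.9% of the 4-fold changes were recovered, with 4 false calls. For the comparison of monocyte types (11500 genes) the shares were 10.1% and 78.1%, with 2 false calls. The simulation gave every gene the same variability and, apart from the changes put in, every library of a class the same mean profile. Its shares and false calls may therefore not hold for the real libraries.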

Additional observations from a re-analysis of the deposited data

Results flagged for a closer look

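Members whose AML change differed between nonclassical and classical monocytes by the test of that difference were looked at again, with Ccl3 at 2.97, Ccl2 at 1.75 and Ccl9 at 0.66 on the log2 scale. For Ccl3 the change was 1.84 in nonclassical and -0.93 in classical monocytes, and only the former passed on its own. For Ccl2 the changes were 1.14 and -0.58 and for Ccl9 0.05 and -0.55, and none of these 4 passed on its own. Groups of 3 libraries were too small for a search for outlying libraries.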

How the results depend on the processing

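Over 554 alternative fits of the 41 log2 changes given, 454 kept direction and side of the threshold, 46 lost it, 33 gained it and 21 turned sign. For all of them the cause was not tested. The 3 calls in whole libraries became 0 with the replicate block (same-numbered libraries as pairs), where 72 of 16808 genes were called. With 1 library left out they became 0 to 4. The 3 in nonclassical monocytes became 0 to 3 with 1 library left out and stayed at 3 with the replicate block. The 0 in classical monocytes became 1 with DESeq2 (660 of 10162 genes called), 3 with no low count filter (1506 of 19613) and 0 to 1 with 1 library left out. The 1 call in lymphoid, dendritic and basophil classes became 3 with DESeq2, 19 with no filter, 2 with the replicate block, 0 to 5 with 1 library left out, and 0 without cells holding NK, T or mature DC markers, where fewer classes were fitted; it stayed at 1 with at least 5 cells. In mature DC a left-out library sets 1 library against 2, so those calls rest on the spread of 1 arm. The counts for the lymphoid, dendritic and basophil classes have no share of all genes beside them and are not read as results about the members. With the replicate block the edgeR adjusted p was 0.061 for Ccl4, 0.097 for Ccl3 and 0.080 for Ccl22 in whole libraries, 0.060 for Ccl5 in CD4 T cells and 0.040 for Ccl3 in NK cells. Deviations of the libraries numbered 1, 2 and 3 correlated at 0.23, -0.12 and -0.06 in whole libraries, 0.30, -0.02 and 0.28 in nonclassical monocytes and 0.39, 0.18 and 0.57 in B cells. In alveolar macrophages the values were 0.39, -0.05 and 0.48. Every library correlated best with its own number in B cells and cDC1 but not in the other 8 profiles checked, so the numbers were not taken as pairs; in B cells the block left Ccl3 (3.71, adjusted p = 0.23) and Ccl9 (2.62, adjusted p = 0.17) uncalled (edgeR). The 3 members whose change differed between monocyte types became 6 with no filter and 0 to 5 with 1 library left out. The 0 between NK and CD8 T cells became 2 with no filter. No share of all genes is given here beside the counts of these 2 comparisons, so they are not read as results about the members. Alveolar macrophages and neutrophils stayed at 0 throughout. The highest level of each member moved by less than 1 SD under the stricter gate and cell filter.

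Signs turned for changes that did not pass. In whole libraries Ccl2 was 0.20 with cells thinned to 1000 UMIs and ran from -0.17 to 0.13 with 1 library left out, and Ccl7 from -1.05 to 0.76. With 1 library left out, Ccl9 ran from -0.077 to 0.19 in nonclassical monocytes, Ccl4 from -0.66 to 0.93 and Ccl5 from -0.11 to 2.41 in classical monocytes, Ccl6 from -0.38 to 3.02 in NK cells, Ccl17 from -3.05 to 0.48 in alveolar macrophages, and Ccl4 from -0.78 to 0.42 and Ccl22 from -1.28 to 0.92 in cDC2. Ccl5 in classical monocytes was -0.029, Ccl4 in cDC2 0.25 and Ccl22 in cDC2 -0.93 without cells holding NK, T or mature DC markers. Ccl22 in cDC2 was -0.63 with at least 5 cells. Ccl4 in cDC2 was 0.85 under the stricter gate and 0.15 after thinning. Depth limits Ccl7 and Ccl12, with 279 and 74 UMIs, and AML replicate 3, with a median of 1067 UMIs per barcode.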
